A study of Mus musculus with 12 samples.

Results

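The comparison described here set mouse embryonic stem (ES) cells in which the Neurog1 transgene had been induced for 24 h against uninduced ES cells, and used 6 of the 12 arrays of the series, 3 in each group. The arrays were chosen by their titles, which name the expressed gene and the hour of induction or the maintenance culture. The line, E14 with Ainv15, derives from 129P2/OlaHsd mice and carried a Neurog1 transgene under tetracycline-sensitive control, per the labels' protocols. All were grown in medium with serum, leukaemia inhibitory factor (LIF), puromycin and G418, and the induced cells also received doxycycline at 1 ug/ml for 24 h. The remaining 6 arrays came from cells induced for 48 h and 72 h. Uninduced cells were sampled at 0 h, so the transgene, doxycycline and the time in culture cannot be told apart. The labels call the 3 arrays of a group biological replicates without naming separate cultures, so the spread within a group may be technical. The p-values and standard errors rest on this spread pooled over all 12 arrays of the series, also those of 48 h and 72 h. The sources used here do not say how many clones of the line were used.

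Neurog1 encodes a helix-loop-helix protein of the proneural class that commits precursors to a neuronal fate, above all in cranial sensory ganglia, where it acts with ubiquitous E proteins and is opposed by Id proteins. Proneural factors bind E-boxes, switch on a cascade of later helix-loop-helix genes, and raise Notch ligands that hold neighbouring cells back through lateral inhibition. ES cells in serum and LIF sit in a naive pluripotent state kept by a network of transcription factors under STAT3, which a cell leaves through a formative state before it takes up a lineage.

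Transcripts were read as MAS5 signals, a linear intensity with 1 value per probe set and array, and compared as log2(signal + 16), so that changes of dim genes are understated. A gene was called when limma's adjusted p was under 0.05 over the 12629 genes tested, in a fit of all 12 arrays. That fit called 930 genes higher and 349 lower, and a fit of the 6 compared arrays alone called 261 and 76. The induced array of replicate 1 stood apart from its group. Its correlation with the other induced arrays of the same hour was 0.804 and 0.826, against 0.976 between those, and every other pair of arrays of one group reached at least 0.961. Its ratio of 3' to 5' signal of the control transcript Pcx was 6.81, against 1.22 to 2.80 on the other 11 arrays, whereas its ratios for Gapdh (0.862) and Actb (1.42) lay within the range of the others. On this array 373 genes exceeded all 11 others by 2-fold or more and 1267 fell short of all 11 by that much. Differences are therefore given for all 3 induced arrays first and, where a second value follows, for induced replicates 2 and 3 alone second, as log2 difference ± standard error (SE), with n = 3 against n = 3 and then n = 2 against n = 3. Signals are listed in the order of replicates 1, 2 and 3.

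Neurog1 itself was near the floor before induction and bright after it. Its signals were 11.4, 18.7 and 4.53 in uninduced cells and 756, 931 and 974 at 24 h. All induced arrays lay far above all uninduced arrays, and replicate 1 was close to the others of its group. The difference was 5.06 ± 0.27 and 5.17 ± 0.24 (adjusted p = 1.18e-06 and 3.76e-08). The second Neurog1 probe set also separated the groups, with at most 7.39 in uninduced cells and 59.7 to 268 at 24 h. The sources used here do not say whether these probe sets read the transgene or the endogenous transcript. The level at 48 h was not called different from that at 24 h (0.23 ± 0.27, adjusted p = 0.581, and 0.12, adjusted p = 0.766). With all arrays that comparison called 1183 genes higher (9.37%) and 867 lower (6.87%) at 48 h.

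Over all genes, more were higher than lower after 24 h. With all arrays 930 genes were called higher, 7.36% of those tested, and 349 were called lower, 2.76%. With replicates 2 and 3 alone 1866 were higher (14.8%) and 1034 lower (8.19%). Counts of called genes in the lists below are to be read beside these shares. The 2 fits shared 1235 genes called in the same direction, 44 were called with all arrays alone, 1665 without replicate 1 alone, and 0 in opposite directions. The groups did not overlap in 2093 genes that were higher (16.6%) and 1128 that were lower (8.93%), and in 3660 (29%) and 2525 (20%) without replicate 1. The balance between directions depended on the scaling of the arrays: of the calls 72.7% were higher as deposited, 63.1% after quantile normalization and 57.9% after centring each array on its median. The median difference of all genes was 0.10 as deposited, -0.01 after quantile normalization and -0.03 after centring. The counts also rested on single arrays. Leaving out uninduced replicate 1 gave 503 higher and 165 lower, leaving out uninduced replicate 3 gave 571 and 197, and leaving out uninduced replicate 2 gave 752 and 204.

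**Figure D1:**
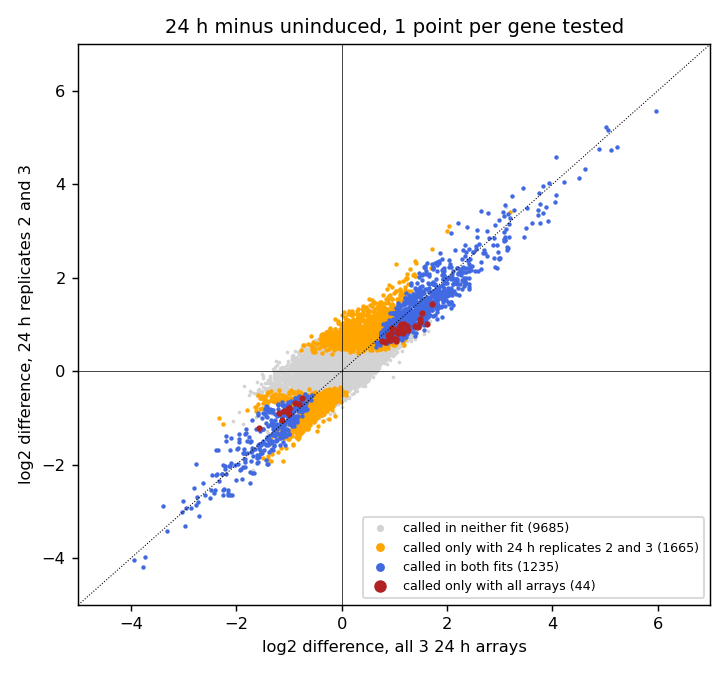
Each point is a gene, placed by its log2 difference (24 h minus uninduced) with all 3 induced arrays on the horizontal axis and with replicates 2 and 3 alone on the vertical axis. There are 1235 genes called in both fits and 1665 called only without replicate 1, the latter mostly between -2 and 2 on both axes. Genes of either kind can lie near the diagonal or off it. Trp53i11 (3.92 and 3.22) was called in both fits. Cdkn1b was called only without replicate 1, though its difference was almost the same in both.

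More rises than falls were large. Of the genes called higher, 167 rose by 2 or more on the log2 scale and 46 by 3 or more, against 51 and 7 for the falls. Without replicate 1 the same counts were 165 and 45 for the rises and 52 and 7 for the falls. Many risers started from little signal, since 249 of the 930 lay under 32 on every uninduced array, and 40 of the 349 genes called lower lay under 32 on every induced array. On replicate 1 the level was above both other induced arrays in 583 of the 930 genes called higher and below both in 225.

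The largest rises joined neurogenic transcription factors to genes better known from other tissues. The 15 largest, in order, were Tff3, Insm1, Spsb4, Ebf2, Csn3, Doc2a, Tbx4, Gfra3, Pkdcc, Greb1l, Dll3, Zic1, Trp53i11, Chst1 and Hes6, with differences from 5.97 down to 3.82. They are the largest among genes with a named symbol that were called in both fits and whose groups did not overlap. Among them, Insm1 is a zinc-finger repressor of neuronal and endocrine precursors, Ebf2 a helix-loop-helix factor of differentiating neurons, Hes6 a factor that works against Hes1, and Dll3 a Notch ligand that acts within the cell. Gfra3 is the artemin receptor of sensory neurons, Zic1 a dorsal neural factor, and Doc2a a protein that couples calcium to exocytosis. Tff3 is a secreted trefoil peptide of mucosal epithelia, Csn3 a milk casein, and Tbx4 a T-box factor of hindlimb and lung.

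Tff3 signals were 8.87, 2.93 and 35.6 in uninduced cells and 3147, 1340.5 and 1383 at 24 h. The rise was 5.97 ± 0.47 and 5.57 ± 0.44 (adjusted p = 1.61e-05 and 3.37e-06). Every induced array exceeded every uninduced one by a wide margin, and replicate 1 was the highest. Insm1 signals went from 16, 66.9 and 35.5 to 3491, 2033 and 988, a rise of 5.23 ± 0.48 and 4.80 ± 0.43 (adjusted p = 3.99e-05 and 1e-05). Ebf2 signals were 0.842, 0.831 and 0.941 before and 392, 818 and 464 after induction, a rise of 5.02 ± 0.46 and 5.23 ± 0.47 (adjusted p = 3.99e-05 and 9.92e-06). Replicate 1 was the brightest induced array for Insm1 and the dimmest for Ebf2.

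Spsb4, an adaptor of ubiquitin ligases, went from 19.6, 29.8 and 28.3 to 2472, 1123 and 1058. It rose by 5.12 ± 0.30 and 4.73 ± 0.16 (adjusted p = 2.05e-06 and 3.2e-09). Doc2a went from 12.6, 14.1 and 27.8 to 1243, 665 and 645, a rise of 4.63 ± 0.31 and 4.32 ± 0.28 (adjusted p = 5.71e-06 and 5.99e-07). For both genes replicates 2 and 3 lay close together and replicate 1 stood above them. Tbx4 was at 2.84, 15.2 and 2.60 before and at 828, 472 and 292 after induction, 4.50 ± 0.35 and 4.13 ± 0.31 higher (adjusted p = 1.54e-05 and 2.35e-06). Csn3 was at 0.781, 18.7 and 17.1 before and at 919, 374 and 1318 after, 4.87 ± 0.95 and 4.75 ± 1.03 higher (adjusted p = 0.00597 and 0.00546). Csn3 had the largest SE of the 15. The size of a rise could depend on the probe set. Other probe sets reaching a signal of 32 rose by as little as 0.85 for Csn3 and 0.93 for Greb1l. For the rest of the 15 that had them, the smallest rise was 2.06 (Zic1).

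**Figure D2:**
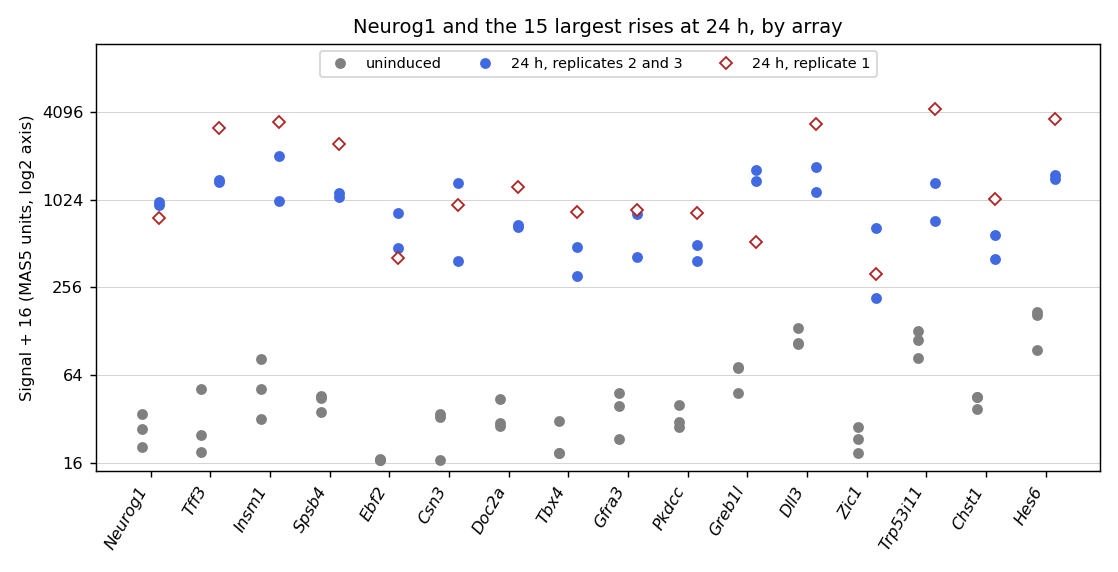
Signals plus 16 on a log2 axis for Neurog1 and the 15 largest rises, 1 point per array, with uninduced arrays in grey, induced replicates 2 and 3 as filled points and induced replicate 1 as an open diamond. No induced point overlaps an uninduced one for any of these genes, which the selection of the 15 required. For Tff3 the induced arrays reach 1340.5 to 3147.

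Promoter sequence was looked at for E-boxes, the CANNTG motif that proneural factors and their E-protein partners bind. The 250 bases before the annotated start were taken from the RefSeq promoter table of assembly GRCm38.p6, which held 32851 promoters and matched 10204 of the 12629 genes tested. CANNTG on either strand was found in 66.2% of all promoters in the table, 58.0% of the 13092 promoters of tested genes, 56.2% of the 1077 of genes called higher and 60.1% of the 338 of genes called lower. In the 191 promoters of genes called higher by 2 or more it was found in 59.2%. CAGATG, which when read on the opposite strand is CATCTG, was found in 14.4% of all promoters, 10.1% of those of tested genes, 11.3% of those of genes called higher, and 18.3% (35 of 191) of those of genes higher by 2 or more. CAGCTG was found in 13.0%, 12.2%, 14.4% and 18.8% (36 of 191) of the same sets. In promoters of genes called lower, CAGATG and CAGCTG were found in 8.0% and 13.3%. Of the 43 promoters of genes lower by 2 or more, 69.8% (30) held CANNTG, and 11.6% each held CAGATG and CAGCTG. Without replicate 1, 15.8% and 17.8% of the 202 promoters of genes higher by 2 or more held CAGATG and CAGCTG. Both are also CANNTG motifs, some genes have several promoters that overlap, and these shares are descriptions without a test.

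The promoters of 6 genes are shown because these genes carry the proneural and Notch-ligand results or lie among the largest rises, and because each holds at least 1 E-box, marked in capitals. Each runs 5' to 3' on the gene's own strand. Dll1 is the second of its listed promoters, at chr17:15376933-15377182 on the minus strand. Dll3 lies at chr7:28301786-28302035 (minus), Hes6 at chr1:91414039-91414288 (minus), Nhlh1 at chr1:172057597-172057846 (minus), Neurod1 at chr2:79456637-79456886 (minus) and Tbx4 at chr11:85896515-85896764 (plus).
Dll1: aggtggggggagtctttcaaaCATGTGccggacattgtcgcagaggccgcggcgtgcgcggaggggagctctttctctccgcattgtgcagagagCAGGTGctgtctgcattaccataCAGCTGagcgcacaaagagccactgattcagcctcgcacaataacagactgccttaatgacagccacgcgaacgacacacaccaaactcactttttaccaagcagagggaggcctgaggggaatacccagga
Dll3: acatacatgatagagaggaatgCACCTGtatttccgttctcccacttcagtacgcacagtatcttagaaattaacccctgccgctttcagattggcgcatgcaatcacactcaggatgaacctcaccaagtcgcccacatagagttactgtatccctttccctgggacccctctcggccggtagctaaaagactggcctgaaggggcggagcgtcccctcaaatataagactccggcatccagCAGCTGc
Hes6: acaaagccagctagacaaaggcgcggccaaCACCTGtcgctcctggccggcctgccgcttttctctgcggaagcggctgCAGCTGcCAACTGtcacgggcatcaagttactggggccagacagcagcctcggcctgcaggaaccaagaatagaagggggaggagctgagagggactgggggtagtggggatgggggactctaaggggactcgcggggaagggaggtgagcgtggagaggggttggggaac
Nhlh1: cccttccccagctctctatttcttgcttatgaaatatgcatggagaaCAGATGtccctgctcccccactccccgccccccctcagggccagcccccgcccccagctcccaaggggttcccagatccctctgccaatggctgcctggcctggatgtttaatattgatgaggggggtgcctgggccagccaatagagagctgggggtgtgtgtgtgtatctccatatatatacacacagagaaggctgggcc
Neurod1: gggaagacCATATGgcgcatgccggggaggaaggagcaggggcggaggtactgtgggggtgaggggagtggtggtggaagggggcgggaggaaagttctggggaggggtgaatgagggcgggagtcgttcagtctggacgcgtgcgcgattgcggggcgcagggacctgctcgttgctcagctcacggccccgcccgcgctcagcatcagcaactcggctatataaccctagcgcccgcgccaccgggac
Tbx4: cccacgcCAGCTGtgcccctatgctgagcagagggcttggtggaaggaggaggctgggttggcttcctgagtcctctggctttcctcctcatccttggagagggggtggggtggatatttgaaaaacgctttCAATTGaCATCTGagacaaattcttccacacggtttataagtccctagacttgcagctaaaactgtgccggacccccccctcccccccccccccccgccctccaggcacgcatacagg
Dll1, Hes6 and Tbx4 each held 3 E-boxes in these 250 bases, Dll3 held 2, and Nhlh1 and Neurod1 held 1 each. Dll1 and Hes6 each have 2 promoters in the table, the one shown holds more E-boxes, and the other holds 1. A single CAGCTG occurred in each of Dll1, Dll3, Hes6 and Tbx4, and in Dll3 it began 7 bases before the annotated start. CAGATG was read in Nhlh1 and, as CATCTG, in Tbx4. Of the 15 largest rises 8 had a promoter in the table and 4 of these held CANNTG. These letters were not in the windows of Neurod4, Dll4, Spsb4, Chst1, Pkdcc and Trp53i11.

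Several helix-loop-helix genes that act after the neurogenins rose. Of 17 proneural genes listed, 12 were tested, 4 rose and 0 fell, and without replicate 1 the counts were 5 and 1, with Nhlh2 added and Neurog3 lower. These counts and the median include Neurog1, the induced gene itself. The median difference of the 12 was 1.04 and 1.0, beside 0.10 and 0.08 for all genes. Apart from Neurog1, the risers were Neurod1, Neurod4 and Nhlh1, which follow the neurogenins in neuronal differentiation. Neurod1 was already present at 75.2, 389 and 356 in uninduced cells and reached 1543, 2792 and 2172, a rise of 3.15 ± 0.45 and 3.37 ± 0.46 (adjusted p = 0.000857 and 0.000226). Neurod4 went from 7.28, 4.84 and 4.53 to 81.3, 365 and 206, a rise of 3.23 ± 0.39 and 3.76 ± 0.23 (adjusted p = 0.000258 and 4.7e-07). Nhlh1 went from 11.2, 11.6 and 20.8 to 658, 389 and 216, a rise of 3.72 ± 0.35 and 3.34 ± 0.27 (adjusted p = 5.21e-05 and 4.16e-06). The groups did not overlap for any of these genes, and replicate 1 was the dimmest induced array for Neurod1 and Neurod4 and the brightest for Nhlh1.

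Nhlh2, the close relative of Nhlh1, was dimmer. Its signals were 1.24, 0.407 and 27.8 before and 17.4, 49.5 and 71.3 after induction, with one uninduced array above one induced array. The difference of 1.32 ± 0.41 was not called with all arrays (adjusted p = 0.0587), was called without replicate 1 (1.71 ± 0.35, adjusted p = 0.00364), and was called with all arrays when the replicate number was a block (adjusted p = 0.013). By 48 h Nhlh2 was 3.93 ± 0.41 and 3.53 above its level at 24 h (adjusted p = 6.62e-05 and 2.11e-05). Neurod2, of cortical neurons, differed by 0.77 ± 0.31 and 0.65 ± 0.34 (adjusted p = 0.148 and 0.194). Atoh1, a proneural factor of hair cells and cerebellum, differed by 0.19 ± 0.32 and 0.05 ± 0.35 (adjusted p = 0.74 and 0.938). Both had groups that overlapped, with signals between 10.5 and 52.9.

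Among E proteins and Id inhibitors, Id4 rose and Id3 fell. Of 7 members tested 1 rose and 1 fell with all arrays, 4 rose and 1 fell without replicate 1, and the replicate block gave 2 rising. The median was 0.71 and 0.59. With all arrays 14.3% rose and 14.3% fell, 1 gene each, beside 7.36% and 2.76% of all genes. Id4 went from 32.1, 93.4 and 48.0 to 291, 345 and 273, a rise of 2.19 ± 0.40 and 2.22 ± 0.41 (adjusted p = 0.00402 and 0.00189). Id3 went the other way, from 374, 224 and 272 to 34.2, 46.8 and 10.9, a difference of -2.77 ± 0.64 and -2.87 ± 0.69 (adjusted p = 0.0163 and 0.00948). Neither gene had overlapping groups. The Id3 call was lost without uninduced replicate 1, without uninduced replicate 3 and with a pseudocount of 64, and its adjusted p ran from 0.00574 to 0.0757 over the alternatives. Id1 was at 779, 403 and 891 before and 829.6, 256 and 300.4 after induction (-0.68 ± 0.52 and -1.19 ± 0.45, adjusted p = 0.445 and 0.0763), with replicate 1 inside the uninduced range and the other induced arrays below it.

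The E proteins, partners of every proneural factor, were read differently by replicate 1. Tcf12 signals were 225, 356 and 280.3 in uninduced cells and 158, 739.7 and 876 at 24 h. The difference was 0.71 ± 0.47 with all arrays (adjusted p = 0.379) and 1.46 ± 0.19 without replicate 1 (adjusted p = 0.000192). Tcf4 signals were 206, 289 and 199 before and 96.8, 594 and 561 after, with 0.48 ± 0.50 (adjusted p = 0.587) and 1.28 ± 0.20 (adjusted p = 0.000612). For both genes replicates 2 and 3 lay above all uninduced arrays and replicate 1 lay below them all. Tcf3 showed the reverse, at 196, 189 and 201 before and 723, 306 and 301 after, where replicate 1 was the highest. Its difference was 1.00 ± 0.31 (adjusted p = 0.0645) and 0.59 ± 0.19 (adjusted p = 0.0389), and the replicate block brought the adjusted p with all arrays to 0.042.

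Many transcription factors of newborn neurons rose. Of 31 listed, 24 were tested, 13 rose and 1 fell with all arrays, and 14 rose and 1 fell without replicate 1. The median was 1.29 and 1.39. Insm1, Ebf2 and Hes6 led the rises. The member that fell was Rest, the repressor that keeps neuronal genes silent in other cells. Its signals were 1234, 1273 and 1346 in uninduced cells and 103, 423 and 512 at 24 h. Every induced array lay below every uninduced one, and replicate 1 was much the lowest. The difference was -2.10 ± 0.44 and -1.43 ± 0.19 (adjusted p = 0.0089 and 0.000226), and the call was lost when the 6 arrays were fitted alone (adjusted p from 2.62e-05 to 0.0864 over the alternatives).

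The Delta-type Notch ligands rose by more than 3 on the log2 scale, and some receptors and modifiers rose by less. Of 12 ligands and ligand regulators tested, 5 rose (Dll1, Dll3, Dll4, Neurl1b and Numbl) and 0 fell, and 7 and 0 without replicate 1, which added Mib1 and Numb. The median was 0.76 and 0.88. Dll1, the main ligand of lateral inhibition, went from 54.2, 85.8 and 98.2 to 1793, 1139.7 and 872, a rise of 3.72 ± 0.32 and 3.44 ± 0.26 (adjusted p = 3e-05 and 2.51e-06). Dll3 went from 119, 89.0 and 90.5 to 3366, 1705 and 1141, a rise of 4.04 ± 0.46 and 3.62 ± 0.40 (adjusted p = 0.000182 and 5.97e-05). Dll4, better known from blood vessels, went from 3.63, 2.30 and 5.32 to 397, 204 and 106, a rise of 3.50 ± 0.37 and 3.06 ± 0.29 (adjusted p = 0.000104 and 1.6e-05). In all 3 genes the groups were far apart and replicate 1 was the highest. The Jagged ligand Jag1 differed by 0.02 ± 0.27 and 0.08 ± 0.25 (adjusted p = 0.967 and 0.861), and Jag2 by 0.32 ± 0.34 and 0.16 ± 0.35 (adjusted p = 0.604 and 0.793), with overlapping groups. At 48 h Jag1 was 2.66 ± 0.27 and 2.60 higher than at 24 h (adjusted p = 6.32e-05 and 2.03e-05). The Neurl1b call was lost without uninduced replicate 1 and with the 6 arrays alone (adjusted p from 0.00311 to 0.0666), and the Numbl call without uninduced replicate 2 or 3 and with the 6 arrays alone (0.000848 to 0.12). With the replicate block Neurl1a rose as well (adjusted p = 0.0153).

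On the side of signal handling, Mib1, the ubiquitin ligase that activates ligands, was at 200.3, 192 and 148 before and 34.3, 389 and 411 after induction. Replicate 1 lay below all uninduced arrays and the other induced arrays above them, so the difference was 0.08 ± 0.61 with all arrays (adjusted p = 0.948) and 1.10 ± 0.18 without replicate 1 (adjusted p = 0.00102). Adam10, the protease that cuts the receptor outside the cell, followed the same pattern at 294, 372 and 296 before and 152, 680.0 and 739 after (0.41 ± 0.44, adjusted p = 0.593, and 1.11 ± 0.14, adjusted p = 0.000148). Of 15 receptors, fringes and processing enzymes tested, 4 rose (Notch1, Notch2, Mfng and Ncstn) and 0 fell, and without replicate 1 Adam10 also rose and Notch4 fell. The median was 0.49 and 0.31. With all arrays and the replicate block, Notch4 also fell (adjusted p = 0.043) and Rfng, another fringe, also rose (adjusted p = 0.0432). The Notch1 call was lost without any 1 of the uninduced arrays, with the mean of all probe sets and with the 6 arrays alone (adjusted p from 0.000741 to 0.118). Mfng, a fringe that glycosylates Notch, went from 62.7, 50.5 and 53.2 to 821, 354 and 265, a rise of 2.64 ± 0.40 and 2.18 ± 0.30 (adjusted p = 0.00119 and 0.000262). Ncstn, a subunit of gamma-secretase, rose by 1.82 ± 0.32 and 1.54 ± 0.27 (adjusted p = 0.00328 and 0.00135), and the receptor Notch2 by 1.49 ± 0.27 and 1.61 ± 0.24 (adjusted p = 0.00373 and 0.000472). The groups of these 3 genes did not overlap.

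Among Notch effectors 2 of 8 tested rose (Hes5 and Maml1) and 0 fell in both fits, but 1 rose without induced replicate 2 or uninduced replicate 1 or 3, with a median of 0.69 and 0.59. Hes5, a direct Notch target of neural progenitors, was at 2.00, 1.36 and 2.25 before and 159, 75.2 and 31.5 after induction. All induced arrays were above the uninduced ones but spread widely among themselves. The rise was 2.35 ± 0.41 and 1.88 ± 0.32 (adjusted p = 0.00328 and 0.00114), and Hes5 was a further 4.12 ± 0.41 and 4.59 higher at 48 h (adjusted p = 5.62e-05 and 2.97e-06). Hes1, present in uninduced cells at 77.7, 166 and 149, was at 321, 197 and 231 at 24 h (0.88 ± 0.29, adjusted p = 0.073, and 0.70 ± 0.27, adjusted p = 0.0773). Its groups did not overlap, yet neither fit called it. Hey1 differed by -0.08 ± 0.25 and -0.19 ± 0.25 (adjusted p = 0.868 and 0.643). The Maml1 call was lost under 5 alternatives (adjusted p from 0.000719 to 0.168).

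The largest falls included 4 factors of naive pluripotency, a Nodal co-receptor and an activin subunit. The 15 largest falls, chosen by the same rule as the rises, were Tdgf1, Lgals3, Spink1, Nr5a2, Xaf1, Inhbb, Pramel6, Hmces, Klf4, Mras, Gsta3, Id3, Morc1, Tcl1 and Nr0b1, from -3.94 to -2.73. Nr5a2, Klf4, Nr0b1 and Tcl1 are part of the naive network, Tdgf1 (Cripto) is the co-receptor of Nodal, and Inhbb encodes an activin subunit. Lgals3 is a galectin, Mras a relative of Ras, Gsta3 a glutathione transferase, and Xaf1 an interferon-induced gene.

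Tdgf1 was among the brightest of these, at 6219, 5560.3 and 6768 in uninduced cells and 450.3, 680.3 and 187 at 24 h. The difference was -3.94 ± 0.71 and -4.04 ± 0.77 (adjusted p = 0.00406 and 0.00239). Its induced arrays were all far below the uninduced ones, with replicate 3 the lowest. Lgals3 went from 1678, 1068 and 1175 to 154, 55.2 and 55.2 (-3.77 ± 0.32 and -4.19 ± 0.23, adjusted p = 3.15e-05 and 1.6e-07). Nr5a2 went from 749.7, 802 and 714 to 20.2 on replicate 1 and 77.0 on replicate 3, with replicate 2 the highest induced array (-3.40 ± 0.45 and -2.89 ± 0.37, adjusted p = 0.000545 and 0.000168). Klf4 went from 1253, 1894 and 1177 to 163, 225 and 129 (-2.95 ± 0.29 and -2.93 ± 0.28, adjusted p = 6.12e-05 and 1.83e-05). Replicate 1 was the highest induced array for Lgals3, the lowest for Nr5a2 and in between for Klf4. Pramel6 lost its call with a pseudocount of 1, and its adjusted p ran from 4.52e-05 to 0.172 over the alternatives. The size of a fall could also depend on the probe set. Other probe sets reaching a signal of 32 differed by only -0.42 for Nr5a2 and -0.44 for Gsta3. The smallest falls were -1.11 for Mras, -1.20 for Xaf1 and Pramel6, -1.23 for Inhbb and -2.52 for Klf4.

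**Figure D3:**
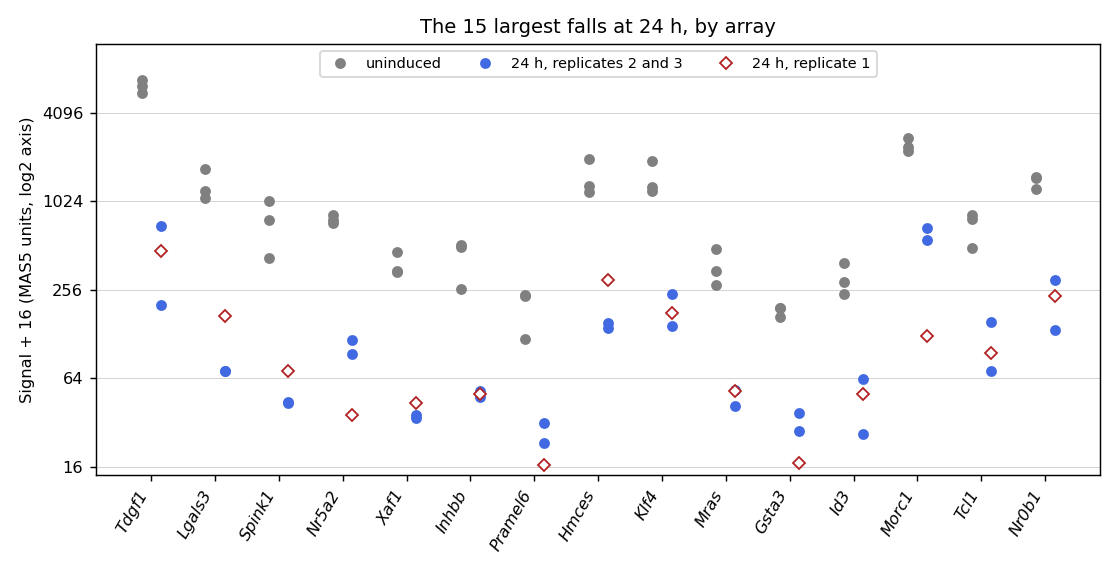
Signals plus 16 on a log2 axis for the 15 largest falls, 1 point per array, drawn as in the plot of the largest rises. Every induced array lies below every uninduced array for each gene, as their selection required. Lgals3 stood at 1068 to 1678 in uninduced cells and 55.2 to 154 at 24 h.

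Of 33 naive pluripotency genes listed, 31 were tested, 0 rose and 16 fell, and 0 and 19 without replicate 1. The median was -1.41 and -1.36, beside 0.10 and 0.08 for all genes, and the replicate block gave 1 rising. Leaving out 1 of the other arrays left between 12 and 14 falls. In bulk RNA fewer cells of a type and less RNA per cell cannot be told apart. Nanog went from 3227, 4042 and 3804 to 589, 949.8 and 838 (-2.22 ± 0.38 and -2.02 ± 0.37, adjusted p = 0.00303 and 0.00188). Zfp42 (Rex1), a marker of the naive state, went from 6749, 6174 and 6642 to 1157, 3232 and 1846 (-1.77 ± 0.36 and -1.41 ± 0.30, adjusted p = 0.00785 and 0.00476). Both had groups that did not overlap, with replicate 1 the lowest array.

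The core factors, which mark ES cells, were bright in both groups. Of 6 core genes tested 0 rose and 0 fell with all arrays, and Sall4 alone fell without replicate 1, with a median of -0.34 and -0.22. Pou5f1 was at 5768, 4936 and 6063 before and 6676, 3919 and 3295 after induction (-0.33 ± 0.45 and -0.63 ± 0.44, adjusted p = 0.684 and 0.337). Sox2 was at 4906, 4745 and 4102 before and 3331, 4106 and 3337 after (-0.35 ± 0.16 and -0.30 ± 0.14, adjusted p = 0.197 and 0.147). For both genes the groups overlapped. From 24 h to 48 h Pou5f1 changed by a further -4.09 ± 0.45 and -3.80 (adjusted p = 0.000101 and 6.99e-05), and Sox2 differed by -0.36 ± 0.16 and -0.41 (adjusted p = 0.154 and 0.0548).

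Genes of LIF and STAT3 signalling, which sustains the naive state in this medium, fell in part. LIF was in the medium of all cultures, per the labels. Of 14 tested 0 rose and 9 fell in both fits, with a median of -1.0 and -1.05. The falls numbered 5 without induced replicate 3, uninduced replicate 1 or uninduced replicate 2, and 6 without uninduced replicate 3, and 1 gene rose without induced replicate 2. With all arrays the 3 largest falls were Klf4, Bcl3 and Tfcp2l1, and without replicate 1 Socs3 lay below Tfcp2l1. Bcl3 went from 288, 298 and 118 to 38.5, 28.7 and 12.8 (-2.50 ± 0.37 and -2.70 ± 0.39, adjusted p = 0.00103 and 0.000369). Tfcp2l1 went from 809, 1192 and 794 to 102, 293 and 253 (-2.12 ± 0.37 and -1.69 ± 0.28, adjusted p = 0.00335 and 0.00104). Neither gene's groups overlapped. Members chosen after their values were seen include Socs3, the feedback inhibitor, from 1557, 1612 and 1511 to 598, 308 and 283 (-2.01 ± 0.29 and -2.34 ± 0.20, adjusted p = 0.000875 and 5.46e-06). Stat3 itself was -0.84 ± 0.23 and -1.01 ± 0.17 lower (adjusted p = 0.0332 and 0.00125). The receptor subunit Lifr was at 558, 533 and 572 before and 86.1, 916 and 597 after (-0.56 ± 0.58 and 0.41 ± 0.17, adjusted p = 0.586 and 0.111), where replicate 1 lay below and the other induced arrays above all uninduced ones.

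Genes of formative and primed pluripotency rose in part. Of 20 tested 9 rose and 1 fell, and 9 and 4 without replicate 1, with a median of 1.13 and 0.79. The replicate block gave 3 falling with all arrays. The rises numbered 5 without uninduced replicate 1 and 6 without uninduced replicate 3 or induced replicate 2. Pou3f1 (Oct6) went from 174, 276 and 107 to 3638, 1532 and 820.3, a rise of 3.15 ± 0.55 and 2.58 ± 0.48 (adjusted p = 0.00337 and 0.00199). Sox3 went from 45.0, 66.6 and 40.7 to 1415, 308 and 272, a rise of 2.96 ± 0.55 and 2.21 ± 0.37 (adjusted p = 0.00464 and 0.000959). Lef1, a nuclear effector of Wnt, rose by 2.59 ± 0.50 and 2.14 ± 0.47 (adjusted p = 0.00607 and 0.00562). Replicate 1 was the highest array for all 3, and the mean shift of the list on the induced arrays was 1.38, 0.78 and 0.12. On the uninduced arrays the mean shift was 0.09, 0.15 and -0.24, so induced replicate 3 lay inside their range. Fgf5, the classic marker of the primed epiblast, went from 11, 13.9 and 2.14 to 216, 85.8 and 30.2 (2.07 ± 0.52 and 1.49 ± 0.46, adjusted p = 0.0251 and 0.0342). The Fgf5 call was lost without induced replicate 2, without uninduced replicate 1 and without uninduced replicate 3, among 5 alternatives, with adjusted p from 0.00294 to 0.0974. Otx2 was at 660.2, 205 and 179 before and 969.9, 1147 and 401 after, with overlapping groups (1.35 ± 0.72 and 1.18 ± 0.77, adjusted p = 0.271 and 0.306). Dnmt3l, a cofactor of de novo DNA methylation, fell (-2.09 ± 0.49 and -2.66 ± 0.38, adjusted p = 0.0175 and 0.000351), but not without uninduced replicate 1 or 3 or with the 6 arrays alone (adjusted p from 0.000154 to 0.0838). The methyltransferase Dnmt3a rose by 1.50 ± 0.26 and 1.34 ± 0.23 (adjusted p = 0.00328 and 0.00112).

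Some ligands, receptors and feedback inhibitors of extracellular signalling were called. With all arrays 5.56% of the tested Nodal and activin genes rose and 22.2% fell, and 0% and 13.3% of the BMP genes. Of all genes 7.36% rose and 2.76% fell, and 14.8% and 8.19% without replicate 1. In the Nodal and activin list 1 of 18 tested rose (Smad3) and 4 fell (Tdgf1, Inhbb, Smad7 and Pcsk6), with Skil also rising without replicate 1. The replicate block gave 2 rising, leaving out induced replicate 3 gave 3, and the median was 0.16 and 0.32. In the BMP list 0 of 15 rose and 2 fell, and without replicate 1 Bmpr1a, Bmpr2 and Smad5 rose, with a median of 0.13 and 0.07. Bmp4 went from 608, 676 and 631 to 69.0, 138 and 111 (-2.46 ± 0.36 and -2.22 ± 0.34, adjusted p = 0.000986 and 0.000522). Smad7, an inhibitor fed back by both pathways, went from 196, 353 and 197 to 33.9, 33.5 and 63.3 (-2.14 ± 0.29 and -2.03 ± 0.30, adjusted p = 0.000586 and 0.000445). Id3, a BMP target, fell as given above. The uninduced and induced arrays of Bmp4 and Smad7 did not overlap.

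In the FGF and MAPK list 3 of 22 tested rose (Dusp4, Fgf5 and Fgfr2) and 2 fell (Fgf17 and Fgf4), 4 rose and 3 fell without replicate 1, and 5 rose with the replicate block. The median was -0.15 and -0.29. With all arrays 13.6% of the tested members of this list rose and 9.09% fell, and 16.7% and 3.33% of those of the Wnt list. Of all genes 7.36% rose and 2.76% fell, and 14.8% and 8.19% without replicate 1. The Fgf4 call was lost under 7 alternatives, among them the omission of any 1 of the other 5 arrays (adjusted p from 0.000157 to 0.126). Dusp4, a phosphatase that ERK signalling induces and that acts on it, went from 41.8, 70.4 and 36.9 to 1125, 816 and 678, a rise of 3.76 ± 0.26 and 3.57 ± 0.21 (adjusted p = 6.98e-06 and 3.4e-07). The receptor Fgfr2 rose by 1.77 ± 0.32 and 1.87 ± 0.32 (adjusted p = 0.00413 and 0.00129). The ligand Fgf17 went from 216, 228 and 184 to 57.2, 31.3 and 15.9 (-2.23 ± 0.29 and -2.53 ± 0.27, adjusted p = 0.000492 and 4.07e-05). The groups of these 3 genes did not overlap. In the Wnt list 5 of 30 rose (Lef1, Wnt5a, Fzd2, Fzd7 and Wnt8a) and 1 fell (Fzd5), and without replicate 1 Fzd1, Fzd3 and Lrp6 also rose, with a median of 0.43 and 0.33. Wnt5a, a ligand of non-canonical Wnt signalling, went from 9.57, 5.46 and 8.38 to 155, 167 and 51.6, a rise of 2.43 ± 0.37 and 2.23 ± 0.38 (adjusted p = 0.00129 and 0.00126). The receptor Fzd2 went from 28.3, 36.2 and 38.8 to 399, 219.7 and 156, a rise of 2.35 ± 0.37 and 2.00 ± 0.32 (adjusted p = 0.00167 and 0.000738). Both genes stood clear of their uninduced range on all induced arrays.

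Neural progenitor genes rose widely while neuronal structural genes were mixed. Of 30 progenitor and glial genes listed, 24 were tested, 14 rose and 0 fell, and 16 and 0 without replicate 1, with a median of 1.28 and 1.50. The rises numbered 7 without uninduced replicate 1 and 9 without uninduced replicate 3 or induced replicate 2. Zic1 led, from 2.76, 7.33 and 12.4 to 299, 199 and 643 (3.94 ± 0.45 and 4.02 ± 0.47, adjusted p = 0.000188 and 8.69e-05). Fabp7, the fatty acid binding protein of radial glia, went from 0.552, 0.854 and 0.956 to 33.9, 252 and 97.2, with replicate 1 the lowest induced array. Its rise of 2.77 ± 0.65 and 3.37 ± 0.60 (adjusted p = 0.0175 and 0.00152) was lost without induced replicate 2, without uninduced replicate 1 or 3, and with a pseudocount of 64 (adjusted p from 5.89e-05 to 0.123).

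In the neuronal cytoskeleton 8 of 29 tested rose and 4 fell (Mapt, Stmn2, Nefl and Nefh), and 10 and 4 without replicate 1, with a median of 0.46 and 0.33. The rises numbered 4 without uninduced replicate 1 or 3 and 5 without induced replicate 2, and the falls 2 without uninduced replicate 1. Tagln3, an actin-associated protein of neurons, went from 67.6, 45.6 and 41.1 to 386, 257 and 199, a rise of 2.11 ± 0.27 and 1.86 ± 0.20 (adjusted p = 0.000369 and 4.94e-05). Dpysl2 (Crmp2), which promotes axon growth, rose by 1.93 ± 0.27 and 1.74 ± 0.24 (adjusted p = 0.000724 and 0.000255). Mapt, which encodes tau, went down instead, from 165, 173 and 235 to 28.9, 26.5 and 30.9 (-2.20 ± 0.29 and -2.20 ± 0.30, adjusted p = 0.000519 and 0.000261). Stmn2, a microtubule regulator of growth cones, was bright in uninduced cells at 3222, 3649 and 3264 and stood at 1654, 1274 and 686 at 24 h. Its difference was -1.56 ± 0.28 and -1.83 ± 0.24 (adjusted p = 0.00403 and 0.000178), and the call was lost with the 6 arrays alone (adjusted p from 6.44e-05 to 0.0533). Nefl, the light neurofilament, was lower by -1.27 ± 0.29 and -1.38 ± 0.27 (adjusted p = 0.0159 and 0.00314), a call lost with the 6 arrays alone and without uninduced replicate 1 (adjusted p from 0.00268 to 0.068). At 48 h Stmn2 was 1.60 ± 0.28 and 1.87 above the level at 24 h (adjusted p = 0.00216 and 0.000134), and Nefl 3.51 ± 0.29 and 3.63 (adjusted p = 2.48e-05 and 4.45e-06).

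Tubb3 and Dcx, common markers of young neurons, were higher on every induced array than on any uninduced one. Tubb3, the neuronal beta-tubulin, was at 504, 335 and 332 before and 2333, 873 and 544 after induction, with replicate 1 the highest. Its rise of 1.40 ± 0.39 and 0.82 ± 0.21 (adjusted p = 0.0401 and 0.0131) was lost under 7 alternatives, including those without induced replicate 2 or any 1 of the uninduced arrays (adjusted p from 0.00454 to 0.221). Dcx was at 15, 8.27 and 12.4 before and 17.2, 65.1 and 27.5 after (0.82 ± 0.31, adjusted p = 0.115, and 1.10 ± 0.25, adjusted p = 0.00748). Its groups did not overlap, and it was 4.22 ± 0.31 and 3.94 higher at 48 h (adjusted p = 1.81e-05 and 2.4e-06).

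RNA-binding proteins and splicing factors of neurons rose in 7 of 20 tested and fell in 0 (10 and 0 without replicate 1), with a median of 0.51 and 0.64. The rises numbered 3 without induced replicate 2 or uninduced replicate 1 and 4 without uninduced replicate 2. Srrm4, which drives neuronal microexon splicing and acts on the Rest transcript, went from 1.01, 1.02 and 23.7 to 262, 145 and 141, a rise of 3.09 ± 0.34 and 2.82 ± 0.32 (adjusted p = 0.000153 and 6.1e-05). Msi1, of neural stem cells, rose by 1.92 ± 0.34 and 1.53 ± 0.25 (adjusted p = 0.00345 and 0.000916) on its brightest probe set, while another of its probe sets gave -0.01. Synapse and secretory vesicle genes rose in 10 of 29 tested and fell in 0 (11 and 0 without replicate 1), with a median of 0.62 and 0.61. Besides Doc2a, the leaders were Syt13, an atypical synaptotagmin, from 14.2, 17.9 and 3.44 to 239, 140.1 and 182 (2.88 ± 0.32 and 2.70 ± 0.31, adjusted p = 0.000182 and 8.3e-05), and Cpe, which trims neuropeptides, from 61.5, 185 and 118 to 391, 541 and 621 (2.04 ± 0.30 and 2.22 ± 0.28, adjusted p = 0.00109 and 0.000134). No induced array of Srrm4, Syt13 or Cpe lay within the uninduced range.

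Genes of sensory neurons and placodes, the lineage in which Neurog1 is best known, rose in 5 of 22 tested (Gfra1, Gfra2, Gfra3, Isl1 and P2rx3) and fell in 0, and without replicate 1 Pou4f1 and Eya1 also rose, with a median of 0.27 and 0.15. With all arrays the 3 largest rises were receptors of the GDNF family, while without replicate 1 Isl1 (2.13) stood above Gfra2 (1.64). Gfra3 went from 23.4, 32 and 7.47 to 851, 399 and 799 (4.23 ± 0.54 and 4.04 ± 0.56, adjusted p = 0.000369 and 0.000282). Gfra1 went from 13.9, 29.9 and 34.5 to 323, 284 and 511 (3.20 ± 0.28 and 3.28 ± 0.27, adjusted p = 3.41e-05 and 5.07e-06). Gfra2 went from 0.697, 8.84 and 19.6 to 135, 55.5 and 65.6 (1.97 ± 0.33 and 1.64 ± 0.30, adjusted p = 0.00286 and 0.00173). Their groups did not overlap. Other probe sets reaching a signal of 32 rose by as little as 0.16 for Gfra2 and 1.99 for Gfra1. Axon guidance genes rose in 3 of 41 tested (Sema6d, Efnb1 and Nfasc) and fell in 1 (Ntn1), with 9 and 2 without replicate 1 and 5 rising with the replicate block. The median was 0.35 and 0.31. The shares of 7.32% and 2.44% with all arrays are near those of all genes, 7.36% and 2.76%. The Nfasc call was lost under 10 alternatives (adjusted p from 0.0168 to 0.192), and the Ntn1 call without uninduced replicate 3, with the mean of all probe sets and with the 6 arrays alone (0.00109 to 0.0856). Sema6d rose by 2.31 ± 0.29 and 2.59 ± 0.23 (adjusted p = 0.000361 and 1e-05) and Efnb1 by 2.14 ± 0.37 and 1.72 ± 0.30 (adjusted p = 0.00328 and 0.00125). Among ion channels 1 of 18 rose (Cacna1b, 5.56%) and 0 fell, also near the shares of all genes, with a median of -0.01 and -0.14. The Cacna1b call was lost without any 1 of the arrays other than induced replicate 1. Among neurotransmitter receptors 1 of 17 rose (Chrna5) and 1 fell (Grik3), 5.88% each, beside 7.36% and 2.76% of all genes. With the replicate block 3 rose, and the median was 0.28 and 0.35. The Chrna5 call was lost without uninduced replicate 2 and with a pseudocount of 64 (adjusted p from 0.000293 to 0.0786), and the Grik3 call under 7 alternatives, among them the omission of induced replicate 2 or any 1 of the uninduced arrays (adjusted p from 0.0143 to 0.144).

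**Figure D4:**
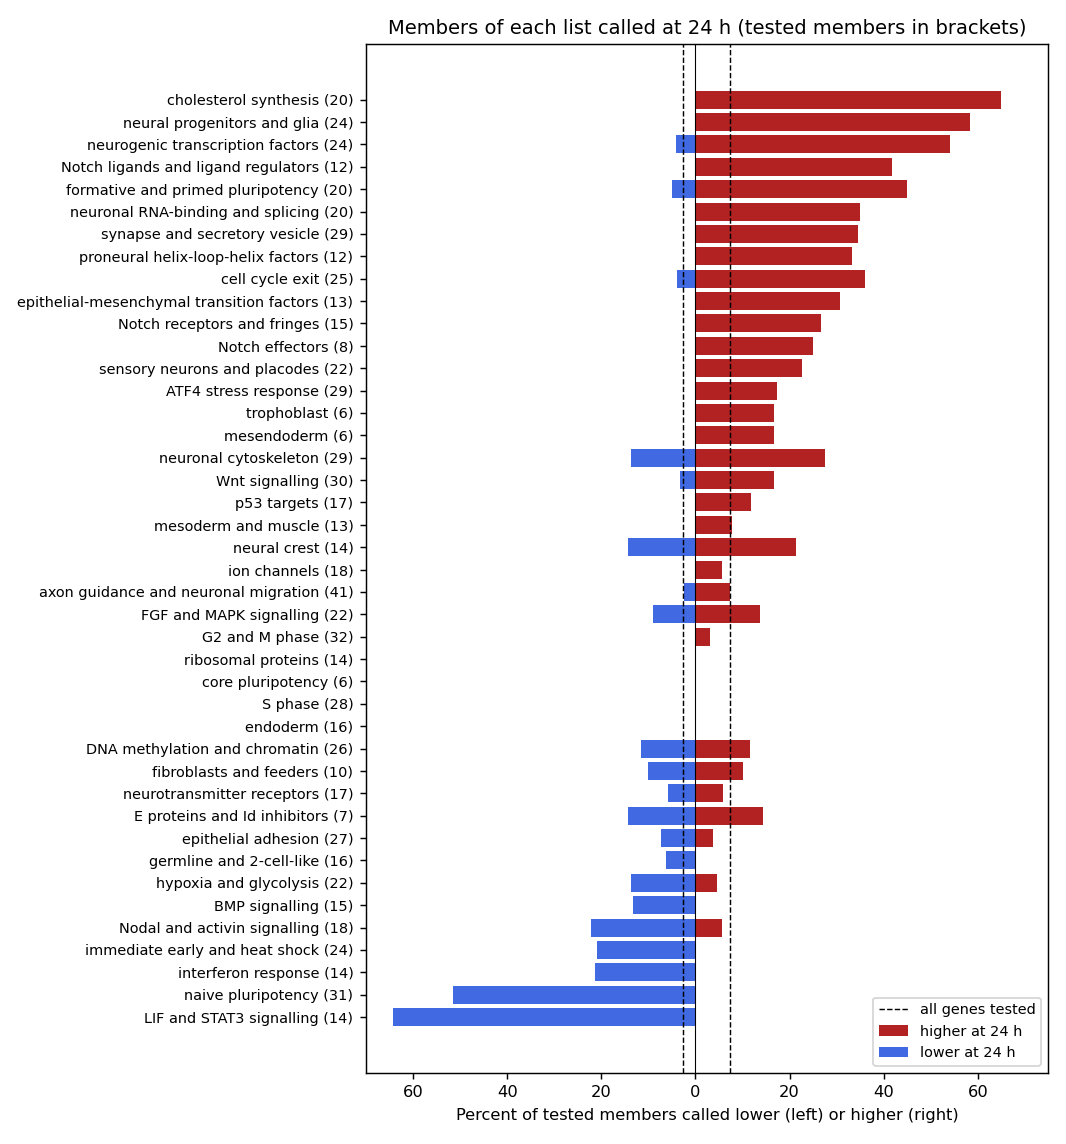
For each gene list, the share of tested members called higher (to the right) and lower (to the left) at 24 h, with all 3 induced arrays, and the same shares of all genes tested as dashed lines (7.36% higher and 2.76% lower). Cholesterol synthesis (13 of 20 higher) and neural progenitors (14 of 24 higher) have the longest bars to the right, and LIF and STAT3 signalling (9 of 14 lower) and naive pluripotency (16 of 31 lower) the longest to the left.

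Genes of cell cycle exit rose, while genes of S phase and of G2 and M phase gave 1 call among them with all arrays. Of 25 exit genes tested 9 rose and 1 fell (Gadd45b), and 15 and 2 without replicate 1, with a median of 0.90 and 0.77. Leaving out 1 of the other arrays gave 7 to 11 rises. Gadd45g, a stress-responsive growth inhibitor, went from 131, 137 and 107 to 1651, 1285 and 804, a rise of 3.11 ± 0.27 and 2.88 ± 0.22 (adjusted p = 3.19e-05 and 2.35e-06). Cdkn1c (p57) went from 140.1, 500.5 and 339 to 2444, 1432 and 2124, a rise of 2.69 ± 0.36 and 2.52 ± 0.36 (adjusted p = 0.000589 and 0.00035). Cdkn1a (p21) rose by 1.71 ± 0.35 and 1.32 ± 0.27 (adjusted p = 0.0087 and 0.0036), a call lost with the 6 arrays alone (adjusted p from 0.00238 to 0.0999). Cdkn1b (p27) differed by 1.10 ± 0.34 (adjusted p = 0.0568), and was called without replicate 1 (1.08 ± 0.34, adjusted p = 0.0337) and with the replicate block (adjusted p = 0.019). All 4 had groups that did not overlap.

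Of 28 S phase genes 0 rose and 0 fell, and without replicate 1 Mcm10, Cdt1, Tk1 and Ccne1 fell, with a median of -0.16 and -0.20. With all arrays 7.36% of all genes rose and 2.76% fell, and without replicate 1 14.8% and 8.19% did. Of 32 genes of G2 and M phase 1 rose and 0 fell, Bub1b fell without replicate 1, and 1 fell with the replicate block, with a median of -0.37 and -0.01. The riser was Cdc25b, a phosphatase that starts mitosis and is known in neural progenitors, with 2.07 ± 0.31 and 1.78 ± 0.25 (adjusted p = 0.0011 and 0.000325). Replicate 1 read this list apart, with a mean shift of -1.03, against 0.03 on each of the other induced arrays. Mki67, chosen after its values were seen, was at 1294, 1145 and 919 in uninduced cells and 95.0, 1353 and 1316 at 24 h. Its differences were -0.94 ± 0.70 and 0.26 ± 0.15 (adjusted p = 0.438 and 0.231).

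Cholesterol synthesis had the highest share of rising members of the 42 lists in both fits. Of 25 listed, 20 were tested, 13 rose (65.0%) and 0 fell, and 15 and 0 without replicate 1, with a median of 1.28 and 1.26. Leaving out 1 of the other arrays left 10 to 13 rises. The mean shift was alike on the 3 induced arrays, at 1.18, 0.98 and 1.33. Tm7sf2, a sterol reductase, went from 53.3, 73.1 and 51.6 to 461, 238 and 285, a rise of 2.15 ± 0.25 and 1.89 ± 0.18 (adjusted p = 0.000243 and 1.6e-05). Fdps, which makes farnesyl diphosphate, went from 1303, 1077 and 825 to 4885, 2855 and 3897, a rise of 1.83 ± 0.24 and 1.65 ± 0.20 (adjusted p = 0.000428 and 0.000106). Insig1, the sterol-sensing brake on this pathway, went from 301, 268 and 159 to 857, 679 and 900.5, a rise of 1.71 ± 0.25 and 1.67 ± 0.23 (adjusted p = 0.00109 and 0.000279). The groups of these 3 genes did not overlap. At 48 h Fdps was lower again by -1.16 ± 0.24 and -0.97 (adjusted p = 0.00534 and 0.00333), and Insig1 by -0.91 ± 0.25 and -0.87 (adjusted p = 0.027 and 0.0153).

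Lists of cellular stress are given beside these results because all induced cells received doxycycline. With all arrays 17.2% of the tested ATF4 genes rose and 0% fell, and 11.8% and 0% of the p53 genes. The immediate early and heat shock list had 0% and 20.8%. Of all genes 7.36% rose and 2.76% fell, and 14.8% and 8.19% without replicate 1. In the ATF4 stress list 5 of 29 tested rose (Atf5, Vldlr, Nupr1, Ddit4 and Slc1a4) and 0 fell. There were 8 rises and 1 fall without replicate 1, 8 rises with the replicate block or without induced replicate 3, 1 without uninduced replicate 3 and 2 without uninduced replicate 2, with a median of 0.45 and 0.33. Its mean shift was 0.98 on replicate 1 and 0.39 and 0.37 on the other induced arrays. Atf5 led, from 149.6, 180.5 and 146 to 1231, 514 and 534, a rise of 2.03 ± 0.33 and 1.63 ± 0.22 (adjusted p = 0.00211 and 0.000224). In the p53 list 2 of 17 rose (Cdkn1a and Btg2) and 0 fell, and 5 and 0 without replicate 1, with a median of 0.42 and 0.37. Of 24 immediate early and heat shock genes 0 rose and 5 fell (1 and 8 without replicate 1, and 1 rising with the replicate block), with a median of -0.21 and -0.17. The falls were Myc, Nr4a1, Hspb1, Junb and Zfp36. Myc changed by -1.61 ± 0.37 and -1.80 ± 0.37 (adjusted p = 0.0152 and 0.0037), a call lost without uninduced replicate 3 and with the 6 arrays alone (adjusted p from 0.00142 to 0.0612). Nr4a1 changed by -1.60 ± 0.28 and -1.96 ± 0.20 (adjusted p = 0.0035 and 2.9e-05), a call lost with the 6 arrays alone (adjusted p from 2.46e-05 to 0.0674). Leaving out any 1 of the other 5 arrays left 2 or 3 falls in this list. The part of these lists in the other results was not tested.

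Replicate 1 read glycolysis genes higher than the other induced arrays did, by the mean of the list. The mean shift was 0.45, -0.16 and -0.37 on the induced arrays. On the uninduced arrays it was 0.26, 0.04 and -0.30, a range that holds induced replicate 2. With all arrays 4.55% of the list rose and 13.6% fell, beside 7.36% and 2.76% of all genes. Without replicate 1 14.8% of all genes rose and 8.19% fell. In the hypoxia and glycolysis list 1 of 22 tested rose (Adm) and 3 fell (Ldha, Pfkp and Pgk1) with all arrays, 0 and 10 without replicate 1, and the replicate block gave 3 rising. The median was -0.21 and -0.44. Ldha was at 8151, 6921 and 8229.6 before and 7328, 2902 and 2318 after induction. Replicate 1 lay inside the uninduced range and the other induced arrays far below it. The difference was -1.07 ± 0.32 with all arrays (adjusted p = 0.0493) and -1.57 ± 0.14 without replicate 1 (adjusted p = 1e-05). The call with all arrays was lost under 10 alternatives, among them the omission of any 1 of the other 5 arrays (adjusted p from 1e-05 to 0.219). Adm was lost under 9 alternatives, Pgk1 under 8 and Pfkp under 3, with adjusted p up to 0.126, 0.202 and 0.143. Without uninduced replicate 1 or 2 the falls in the list numbered 0.

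Of epithelial adhesion genes 3.70% rose and 7.41% fell with all arrays, beside 7.36% and 2.76% of all genes. Some factors of the epithelial-mesenchymal transition rose (30.8%). Of 27 adhesion genes tested 1 rose (Spint1) and 2 fell (Esrp1 and Marveld3), and 4 fell with the replicate block, with a median of -0.11 and -0.59. Without replicate 1, 2 rose and 7 fell, where 14.8% and 8.19% of all genes did. The rises numbered 0 without any 1 of the uninduced arrays, and the falls 0 without induced replicate 2 or uninduced replicate 1 or 2. Cdh1 (E-cadherin) was at 2491, 2189 and 1849 before and 2825, 1839 and 1789 after induction (-0.04 ± 0.27 and -0.25 ± 0.23, adjusted p = 0.945 and 0.483), with overlapping groups. Of 13 transition factors 4 rose (Cdh2, Twist1, Zeb1 and Tgfb2) and 0 fell, and Zeb2 also rose without replicate 1, with a median of 0.74 and 0.69. The rises numbered 0 without uninduced replicate 1 and 1 without uninduced replicate 3 or induced replicate 2. Cdh2 (N-cadherin) went from 37.2, 87.8 and 30.8 to 95.5, 197 and 149, a rise of 1.31 ± 0.31 and 1.56 ± 0.27 (adjusted p = 0.0191 and 0.00119). The Cdh2 call was lost without induced replicate 2, without uninduced replicate 1 or 3, and with the 6 arrays alone (adjusted p from 0.000685 to 0.148). From 24 h to 48 h Cdh1 changed by -2.76 ± 0.27 and -2.55 (adjusted p = 5.46e-05 and 1.24e-05), and Cdh2 by 3.12 ± 0.31 and 2.87 (adjusted p = 5.62e-05 and 1.47e-05).

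Lists of markers of other cell types had few tested members, so that 1 call makes a large share. With all arrays neural crest had 21.4% higher and 14.3% lower, beside 7.36% and 2.76% of all genes. Mesendoderm and trophoblast each had 16.7% higher and 0% lower, mesoderm and muscle 7.69% and 0%, and fibroblasts and feeders 10% and 10%. Endoderm had 0% and 0%, and germline and 2-cell genes 0% and 6.25%. Of 6 mesendoderm genes tested Lhx1 rose, of 13 mesoderm and muscle genes Isl1 rose, and of 6 trophoblast genes Tfap2c rose, in both fits. The Lhx1 call was lost without uninduced replicate 1 and with the 6 arrays alone (adjusted p from 0.0186 to 0.092), and the Tfap2c call without induced replicate 2 or uninduced replicate 2 or 3, among 6 alternatives (adjusted p from 0.0192 to 0.17). Of 16 endoderm genes 0 rose and 0 fell, Apoe and Sparc fell without replicate 1, and 2 rose with the replicate block. Of 16 germline and 2-cell genes Dppa3, also a naive pluripotency gene, fell, a call lost under 8 alternatives, among them the omission of induced replicate 2 or 3 or uninduced replicate 1 or 2 (adjusted p from 0.00877 to 0.202). Dazl rose without replicate 1. Of 10 fibroblast and feeder genes Pdgfrb rose and Thy1 fell, the Thy1 call being lost without any 1 of the arrays other than induced replicate 1 (adjusted p from 0.01 to 0.136). Of 14 neural crest genes Pax3, Ets1 and Twist1 rose and Erbb3 and Mitf fell, and 4 rose and 3 fell without replicate 1. The Erbb3 call was lost on omitting any 1 of the other 5 arrays (adjusted p from 0.0109 to 0.226), and the Ets1 call under 9 alternatives (adjusted p from 0.00505 to 0.188). Without uninduced replicate 1 a single neural crest gene rose and a single one fell. Isl1 is also a factor of sensory and motor neurons, and went from 8.84, 15.3 and 8.27 to 44.4, 122 and 82.8 (1.82 ± 0.31 and 2.13 ± 0.24, adjusted p = 0.00303 and 6.1e-05). Pdgfrb, a receptor of mesenchymal cells, went from 10.3, 15.6 and 23.0 to 106, 60.6 and 74.3 (1.57 ± 0.24 and 1.38 ± 0.25, adjusted p = 0.00121 and 0.00155). The groups of Isl1 and Pdgfrb did not overlap. Summed signals of the mesendoderm list ran from 247 to 282 in uninduced cells and 329 to 412 at 24 h, and those of the fibroblast list from 462 to 1551 and 450 to 785. Ribosomal protein genes, with 0 of 14 called in both fits, had a median of -0.19 and -0.31.

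**Figure D5:**
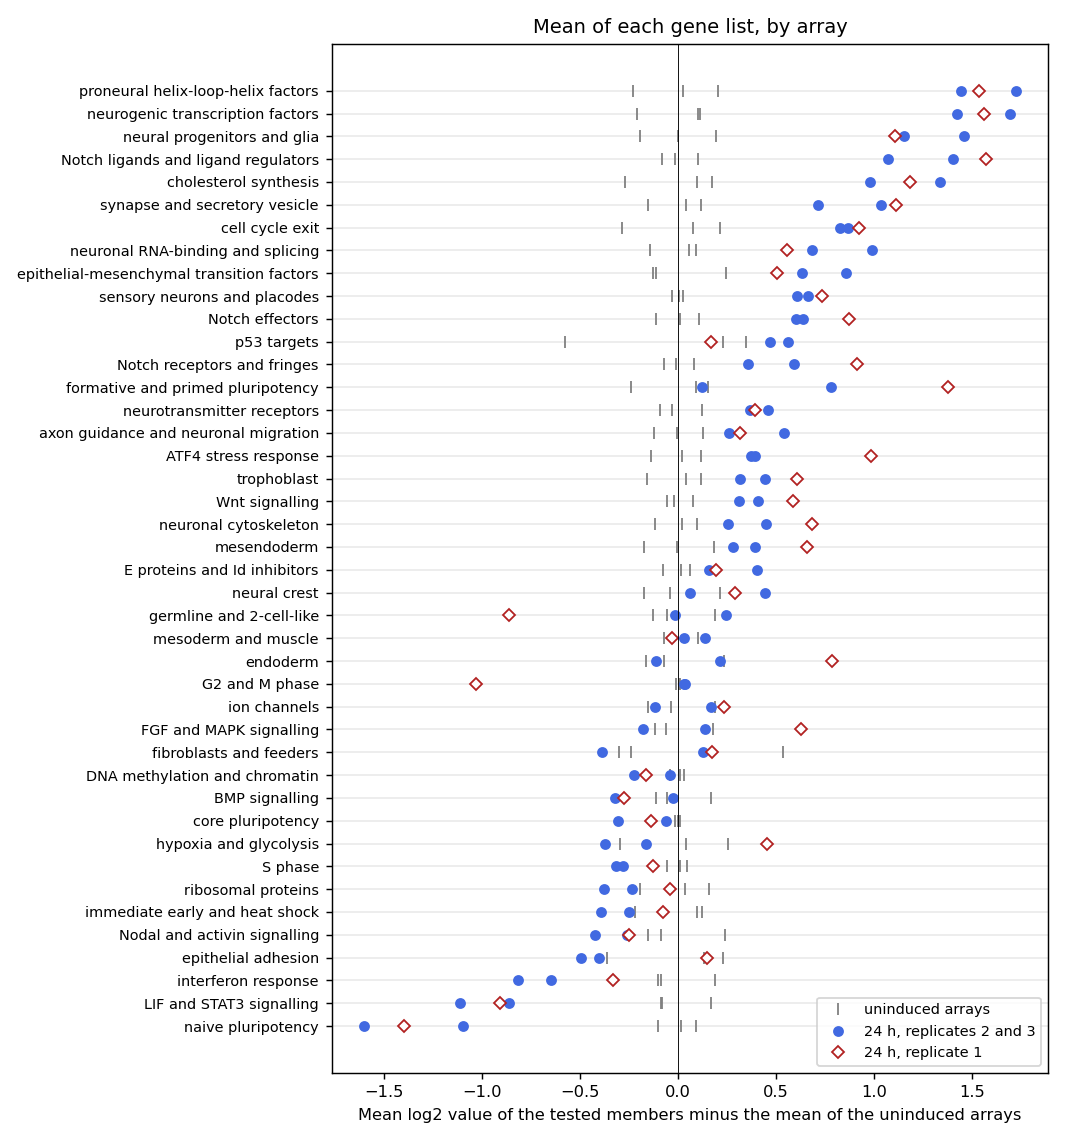
Mean shift of each gene list on each of the 6 arrays, as the mean over tested members of log2(signal + 16) minus the uninduced mean of the gene, with induced replicate 1 as an open diamond. Proneural factors, which include the induced Neurog1, lie at 1.53, 1.72 and 1.44 on the 3 induced arrays. For G2 and M phase replicate 1 lies at -1.03 and the other induced arrays at 0.03.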

How the data were processed

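Total RNA of the mouse ES cells was extracted with Trizol, made into biotinylated cRNA and hybridised to Affymetrix arrays, per the labels' protocols. The deposited values are an intensity on a linear scale, made by the authors in MAS5, according to the submitters' processing notes. The sources used here give neither its version nor its settings. The 2% trimmed mean, computed from the deposited signals, was 150.001 on each array, and medians ran from 19.5 to 32.8. Of 45101 probe sets (64 controls), 34945 had 1 gene symbol in the platform annotation, 932 several and 9160 none, and only the first entered. Entrez identifiers matched 34741 of them to the NCBI gene table, with 0 symbols changed. A gene was read from the probe set with the highest mean over the 12 arrays, and tested if that signal passed the array median on 3 or more arrays, which left 12629 of 18193 genes. No 2 arrays were identical, and their number limits the precision.

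Values were transformed as log2(signal + 16) and fitted with limma 3.58.1 (R 4.3.3), using lmFit, then contrasts.fit, then eBayes with a trend, and 1 term for each of the 4 groups over all 12 arrays. Tests were two-sided, adjusted by Benjamini-Hochberg, and called at 0.05. The fit was tested on simulated data. The alternatives changed the pseudocount, filter, scaling, choice of probe set, arrays in the fit and weights, or left out 1 array each. The labels do not say that a replicate number marks a shared batch. In the data, deviations from the group means correlated at 0.146, 0.152 and 0.139 between uninduced and 24 h arrays of the same number and at -0.167 to 0.0247 between others, so a fit with the number as a block is given where it changes the call of a named gene or moves a count by over 1.5 times.

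The members and the 42 gene lists, drawn from general knowledge, were chosen with earlier results of these data known, and the lists support nothing by themselves. They hold 947 genes, of which 872 have a probe set with 1 symbol and 750 were tested. The rule named Neurog1, and the 15 largest rises and 15 largest falls among genes called in both fits whose groups do not overlap. It also named all tested members of the proneural, E protein and Notch lists, a few fixed markers, and the 3 largest called rises and falls of each list. Values are given above for only part of these genes. Among those left out are Id2, Olig3 and Notch3. Crmp1 (2.42) and Plk3 (2.94) are left out as well, though they rose more than Tagln3 and Cdkn1c. Symbols of unnamed transcripts, such as those ending in Rik, were left out of the largest rises and falls. Other members named beside counts of 5 or fewer were chosen after their values were seen. Of 191 called genes in the lists or named, 106 had another probe set reaching 32, and 4 (Ets1, Fdft1, Msi1 and Sox4) had one of the opposite sign.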

Additional observations from a re-analysis of the deposited data

Results flagged for a closer look

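Of the 30 genes named above for the largest changes at 24 h, 12 differed again between 24 h and 48 h by limma's test of that difference, with n = 3 arrays against n = 3. This comparison shares the 24 h arrays with the one above. It called 1183 genes higher (9.37%) and 867 lower (6.87%) at 48 h. Differences are 48 h minus 24 h on the log2(signal + 16) scale.

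Among the genes that rose by 24 h, the rise was partly undone at 48 h for Doc2a (-3.76), Tbx4 (-2.79), Tff3 (-1.87), Chst1 (-1.29) and Hes6 (-1.17). Without 24 h replicate 1 the first 3 were -3.46, -2.42 and -1.47 (adjusted p = 6.4e-06, 0.000145 and 0.0271). Pkdcc, a secreted kinase, went on rising (1.55, and 1.85 without that array, adjusted p = 0.000194). Without 24 h replicate 1 the differences of Chst1 (-0.93, adjusted p = 0.0849) and Hes6 (-0.73, adjusted p = 0.0515) were not called, and that of Spsb4 was (0.59, adjusted p = 0.0198).

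Among the genes that fell by 24 h, Nr0b1 (-2.78), Lgals3 (-1.52), Tcl1 (-1.39) and Inhbb (-0.90) were lower still at 48 h. Without 24 h replicate 1 these were -2.72, -1.10, -1.44 and -0.91 (adjusted p = 9.95e-05, 0.00336, 0.0138 and 0.0464). Morc1 was not called with all arrays (-1.61, adjusted p = 0.0561) and was called lower without that array (-2.38, adjusted p = 0.000147). Spink1 (1.08, and 1.32 without that array, adjusted p = 0.0054) and Id3 (4.06) turned upward. For Id3 the difference was 4.06 ± 0.64 with all arrays (adjusted p = 0.00107) and 4.15 without 24 h replicate 1 (adjusted p = 0.000831).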

How the results depend on the processing

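Of 178 genes named by rule, 131 were called, 77 of them under every alternative with a value, and all 131 kept their sign. Against 930 higher and 349 lower, a fit of the 6 arrays alone called 261 and 76, array weights 1477 and 754, and, chosen after seeing the data, the replicate block together with leaving out 24 h replicate 1 called 2248 and 1351. Leaving out 1 array gave 503 to 1866 higher and 165 to 1034 lower, the highest counts being those without 24 h replicate 1. The replicate block alone called 1176 and 445, including 1257 of the 1279 genes in the same direction. It changed the call of 7 named genes: Ifitm3 was lost, and Cdkn1b, Nhlh2, Tcf3, Neurl1a, Notch4 and Rfng were gained. The Neurog1 difference ran from 3.65 to 6.32 and was called throughout. With 3 arrays a group and signals near the floor in many genes, sizes of change for dim genes depend on the pseudocount: 954 and 282 were called with a pseudocount of 1 and 781 and 382 with 64. Without the filter on low signals 796 and 298 were called.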

Other observations

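Interferon response genes gave falls and no rises. Of 14 tested 0 rose and 3 fell, and 0 and 5 without 24 h replicate 1, with a median of -0.17 and -0.37. With all arrays 0% rose and 21.4% fell, beside 7.36% and 2.76% of all genes. Without that array 14.8% of all genes rose and 8.19% fell. Xaf1 went from 448, 328 and 319 in uninduced cells to 27.1, 20.1 and 18.1 at 24 h (-3.33 ± 0.25 and -3.43 ± 0.27, adjusted p = 1.43e-05 and 3.49e-06). Ddx58, the RNA sensor RIG-I, went from 509, 300.2 and 377 to 97.5, 114 and 76.0 (-1.86 ± 0.32 and -1.88 ± 0.34, adjusted p = 0.00313 and 0.00165). The groups of both genes did not overlap. Ifitm3 was at 3099, 3331 and 2209 before and 2280.2, 874 and 573 after, with replicate 1 inside the uninduced range (-1.42 ± 0.42 and -1.98 ± 0.27, adjusted p = 0.0484 and 0.000236). The Ifitm3 call was lost under 11 alternatives, including the replicate block (adjusted p = 0.0566) and the omission of any 1 of the other 5 arrays (adjusted p from 0.000138 to 0.183).

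Of 26 genes of DNA methylation and chromatin 3 rose (Dnmt3a, Smarcc2 and Dpf3) and 3 fell (Dnmt3l, Eed and Dpf1), and 5 and 3 without replicate 1, with a median of 0.07 and -0.03. With all arrays 11.5% rose and 11.5% fell, beside 7.36% and 2.76% of all genes. Without replicate 1 14.8% of all genes rose and 8.19% fell. Dpf1, a subunit of the neuronal BAF chromatin remodeller, went from 102, 93.2 and 80.0 to 23.5, 18.6 and 18.2 (-1.58 ± 0.23 and -1.64 ± 0.26, adjusted p = 0.000994 and 0.000684). The groups did not overlap. The falls in this list numbered 1 without uninduced replicate 3, and the rises 1 without uninduced replicate 1. Smarcc2 was lost under 6 alternatives and Dpf3 under 9 (adjusted p up to 0.136 and 0.154). The Eed call was lost without any 1 of the uninduced arrays, with the mean of all probe sets and with the 6 arrays alone (adjusted p from 3.18e-05 to 0.134).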
